A study of Mus musculus with 12 samples.

Results

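Thermogenic genes and the PGC-1 coactivators were followed in 3T3-L1 cells, a mouse preadipocyte line that is turned into adipocytes by DMI, which holds insulin, dexamethasone and the phosphodiesterase inhibitor IBMX. The set held 8 of the 39423 genes in the table, taken by name: Ppargc1a, Ppargc1b, Prdm16, Ucp1, Ucp2, Dio2, Elovl3 and Cidea. Cells of all groups received DMI, and differed in the siRNA (nontargeted control, labelled NC and called siCtrl here, or siRNA against PRMT1, labelled KD and called siPRMT1) and in the time under DMI (24 h, day 1, or 72 h, day 3). Each of the 4 conditions had 3 libraries, 12 in all, and mRNA was sequenced from whole cultures of 1 cell line, with no cells before DMI and no cold or adrenergic stimulus among these libraries. PRMT1, the targeted enzyme, puts methyl groups on arginines of histones and other proteins.

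Brown and beige adipocytes make heat by letting protons return into the mitochondrial matrix through UCP1, which releases the gradient without making ATP. PGC-1alpha (Ppargc1a) and PGC-1beta (Ppargc1b) are coactivators that bind nuclear receptors and raise the transcription of mitochondrial genes, and PRDM16 directs precursors toward the brown fate. Noradrenaline acts through beta-adrenergic receptors and cAMP, and DIO2 makes active thyroid hormone inside the cell, both of which raise Ucp1 in brown fat. ELOVL3 lengthens fatty acids and CIDEA coats lipid droplets, and both mark brown fat, while UCP2 is a mitochondrial carrier of many tissues. 3T3-L1 cells are used as a model of white adipocytes. By blocking phosphodiesterases, the IBMX in DMI raises cAMP.

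The libraries held 15116462 to 42357137 counts on genes, so that a count of 0 allows up to 3 counts, or 0.0708 to 0.1985 CPM (counts scaled by the library total), counting error only. Prmt1 itself had means of 150 ± 9.66 (siCtrl) and 68.3 ± 4.38 CPM (siPRMT1) at day 1, and 206 ± 25.9 and 111 ± 7.40 CPM at day 3 (SD, n = 3), with no overlap at either day. The log2 fold changes of Prmt1 were -1.11 (standard error 0.0758, edgeR's adjusted p = 0.000985) and -0.88 (standard error 0.0883, edgeR's adjusted p = 1.22e-05). The adipocyte markers rose between the days, with the summed FPKM of 8 markers at 96.8 to 110.0 in siCtrl libraries at day 1 and 2190 to 2402 at day 3. The muscle factors Myf5 and Myod1 and the leukocyte marker Ptprc had 0 counts in all 12 libraries. Other markers of muscle and macrophages, and markers of endothelium and epithelium, had counts. In siCtrl cells Acta1 went from 0.110 FPKM at day 1 to 5.23 at day 3, and Des from 0.919 to 6.46. The macrophage marker Cd68 went from 1.39 to 2.14 FPKM, Csf1r from 0.0178 to 0.188 and Itgam from 0.408 to 0.129. The endothelial markers Pecam1 and Cdh5 went from 0.0886 to 0.555 and from 0.0523 to 0.253 FPKM. Tek went from 0.0232 to 0.0346 FPKM and Kdr from 0.0029 to 0. The epithelial markers Krt8 and Krt18 went from 0.0086 to 9.21 and from 0.0112 to 2.03 FPKM. Myog, Ckm, Adgre1, Epcam and Cdh1 stayed near 0. Replicate 3 of siCtrl at day 1 stood apart from its group, with a chi-square per gene of 50.6 and 30.8 against replicates 1 and 2, which differed by 5.30 from each other, while pairs within the other 3 groups had 4.14 to 15.8. The log2 fold changes of Ppargc1a, Ppargc1b and Ucp2 that rest on this library are given with and without it. Other values include it unless stated. CPM below are after TMM normalization unless a total is named. FPKM of single genes in single libraries are the deposited values per length and depth. Means, SDs, ranks and sums of FPKM come from FPKM recomputed from counts, listed lengths and library totals. A call needed an adjusted p from edgeR under 0.05 together with a log2 fold change above 0.5 or below -0.5. The labels do not say whether replicates were separate cultures, so the p-values measure only the spread between these libraries. In whole cultures, fewer cells of a type and less RNA per cell cannot be told apart.

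Sequence upstream of the genes was read from RefSeq promoters on GRCm38.p6, which held an entry for 5 of the 8 genes (Ppargc1a, Prdm16, Ucp1, Ucp2 and Dio2) and none for Ppargc1b, Elovl3 and Cidea. Each entry spans 300 bases, from 250 before to 50 after the start, and was searched on both strands for the cAMP response element (CRE), TGACGTCA, for its core, TGACG or CGTCA, for the CCAAT box, CCAAT or ATTGG, and for TATAAA or TTTATA. Every full CRE also counts as a core. The 4 entries with a CRE or core are shown because the cells were under IBMX, each as the 250 bases before the start, written 5′ to 3′ with the CRE or core in capitals.

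Dio2, chr12:90739039-90739288, minus strand: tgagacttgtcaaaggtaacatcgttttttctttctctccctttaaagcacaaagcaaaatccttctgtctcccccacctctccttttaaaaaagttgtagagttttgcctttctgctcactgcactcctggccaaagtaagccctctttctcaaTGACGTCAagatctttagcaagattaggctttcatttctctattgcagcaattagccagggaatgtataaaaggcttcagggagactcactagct

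Ppargc1a, chr5:51567726-51567975, minus strand: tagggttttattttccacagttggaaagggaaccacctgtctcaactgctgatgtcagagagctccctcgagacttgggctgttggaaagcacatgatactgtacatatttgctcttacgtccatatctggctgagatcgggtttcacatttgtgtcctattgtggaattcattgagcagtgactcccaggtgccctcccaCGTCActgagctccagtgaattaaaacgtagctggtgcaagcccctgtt

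Ucp2, chr7:100493108-100493357, plus strand: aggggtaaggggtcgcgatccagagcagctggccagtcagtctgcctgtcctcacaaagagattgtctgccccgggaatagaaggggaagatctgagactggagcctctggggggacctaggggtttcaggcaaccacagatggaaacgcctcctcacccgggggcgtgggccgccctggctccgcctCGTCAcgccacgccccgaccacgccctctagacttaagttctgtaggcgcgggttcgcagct

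Ucp1, chr8:83290098-83290347, plus strand: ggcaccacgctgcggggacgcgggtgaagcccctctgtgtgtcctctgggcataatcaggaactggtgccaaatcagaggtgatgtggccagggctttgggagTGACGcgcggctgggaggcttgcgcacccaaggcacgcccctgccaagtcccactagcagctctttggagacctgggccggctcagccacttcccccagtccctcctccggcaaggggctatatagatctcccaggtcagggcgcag

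Dio2 held the full palindrome 95 bases before the start and TATAAA 30 bases before it. The full CRE was found in 588 of 32851 promoters of the same length, or 1.79%. Ppargc1a, Ucp2 and Ucp1 held a core 49, 62 and 147 bases before the start, and 20.81% of all promoters held at least 1. Prdm16 had a CCAAT box at 98 bases before the start, as 37.41% of promoters did, and TATAAA in either direction was found in 13.62%. The share of G and C was 44.67% in the Dio2 and 48.67% in the Ppargc1a entry, and 64.33% and 64.67% in those of Ucp2 and Ucp1, beside a median of 52.67%. The Ppargc1a entry lies inside the span that the count table gives the gene, which also takes in starts farther upstream. A match of letters is a description and says nothing of binding.

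In control cells the 8 genes fell into levels far apart. Ucp2 was the highest at both days, with 102.8 ± 15.3 FPKM at day 1 and 130.7 ± 8.38 FPKM at day 3 (SD, n = 3), above 97.09% and 97.62% of the genes with a count in that group. Ppargc1b and Ppargc1a stood at means of 0.334 and 0.265 FPKM at day 1, with libraries from 0.28 to 0.38 and from 0.18 to 0.34 that overlapped. At day 3 the order was Ucp2, Ppargc1b (5.42 ± 0.317 FPKM), Elovl3 (3.63 ± 0.214), Ppargc1a (0.410 ± 0.0669) and Cidea (0.302 ± 0.108), and of these neighbours only Ppargc1a and Cidea overlapped. Prdm16 had 1 count and Ucp1 and Dio2 had 0 counts over the 3 siCtrl libraries at day 3. At day 1, Elovl3 had 1 count, Prdm16 1, Dio2 5, and Ucp1 and Cidea 0 over the 3 siCtrl libraries. The defining gene of brown fat thermogenesis was thus not detectable at this depth in control cells, while the broadly expressed carrier of the same family was among the higher genes.

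Close relatives of the low genes were present in the same libraries. Cidec, a lipid droplet protein of white and brown fat, was at 4.45 FPKM in siCtrl at day 1 and 674 FPKM at day 3, beside 0 and 0.302 for Cidea. Mecom, the closest relative of Prdm16, was at 7.45 and 2.64 FPKM. Pprc1, the third PGC-1 family gene, was at 15.73 and 22.04 FPKM, above Ppargc1a and Ppargc1b at both days. Among fatty acid elongases, Elovl1 (63.0 FPKM at day 3), Elovl5 (29.0) and Elovl6 (4.33) lay above Elovl3, and Elovl4 (1.56) below it. Ucp3, the gene next to Ucp2 on chromosome 7, was at 0.0575 and 0.250 FPKM. Both other deiodinases were at or near 0, with 0 counts of Dio1 in 12 libraries.

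**Figure D1:**
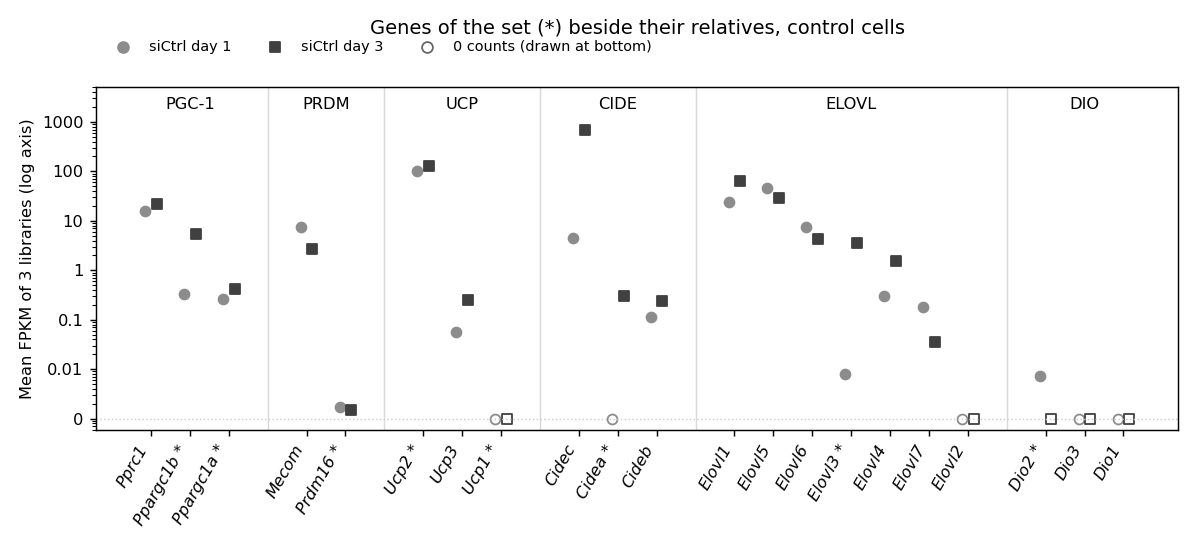
Mean FPKM, recomputed from counts, of 3 siCtrl libraries on a log axis at day 1 (circles) and day 3 (squares), grouped by gene family, with the genes of the set starred and open symbols at the bottom for 0 counts. Ucp2 stands above 100 FPKM at both days, Prdm16, Ucp1 and Dio2 stand near or at 0, and Ppargc1b and Elovl3 lie higher at day 3.

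Of the 8 genes, 4 passed the filter on low counts between day 1 and day 3 in control cells (Ppargc1a, Ppargc1b, Ucp2 and Elovl3), and 2 of them, Ppargc1b and Elovl3, were called higher at day 3, where 22.7% of the 13829 genes tested were called higher and 20.4% lower. In siPRMT1 cells the same 4 passed the filter and 3 were called higher, Ppargc1a besides the others, where 19.0% of 14224 genes were called higher and 17.4% lower. None of the 4 was called lower in either. Elovl3, with 1 count over the siCtrl and 4 over the siPRMT1 libraries at day 1, passed the filter through its day 3 libraries. It could only rise in either, so its call adds nothing to a comparison with these shares.

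Ppargc1b, on chromosome 18 from 61291445 to 61401462 on the minus strand of GRCm38, changed most between days among the coactivators. Its counts were 183, 85 and 68 in siCtrl replicates 1 to 3 at day 1 and 1241, 998 and 1404 at day 3, which is 4.49, 4.11 and 3.37 CPM against 60.6, 66.1 and 58.3 CPM. Every day 3 library lay above every day 1 library. The means, 3.99 ± 0.568 and 61.7 ± 4.04 CPM (SD, n = 3), differed 15.5-fold, a log2 fold change of 3.93 (standard error 0.132, edgeR's adjusted p = 1.34e-08). In siPRMT1 cells it went from 2.88 ± 0.0862 to 55.1 ± 4.33 CPM (SD, n = 3), 19.1-fold, a log2 fold change of 4.25 (standard error 0.0990, edgeR's adjusted p = 6.84e-13). Without siCtrl replicate 3 of day 1 the change in siCtrl cells was 3.82 (edgeR's adjusted p = 7.55e-13). By rank, it moved from above 41.95% to above 64.93% of genes with a count in siCtrl cells. An RNA on the opposite strand, LOC108168383, shares exon sequence with it and had 89 counts over 12 libraries, and the strand setting of the counting is not stated.

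Ppargc1a, on chromosome 5 from 51454249 to 52116058 on the minus strand, moved less. Its counts were 171, 70 and 46 in siCtrl replicates 1 to 3 at day 1 and 115, 72 and 99 at day 3, or 4.19, 3.39 and 2.28 CPM against 5.61, 4.77 and 4.11 CPM. The lowest day 3 library lay under the highest day 1 library, and the log2 fold change of 0.52 was not called (standard error 0.225, edgeR's adjusted p = 0.0694). This outcome turned on the setting: Ppargc1a was called with the replicate number as a block (0.57, edgeR's adjusted p = 0.0186), with all 12 libraries in 1 model (0.51, edgeR's adjusted p = 0.0310), without the filter on low counts (0.51, edgeR's adjusted p = 0.0308) and without siCtrl replicate 1 of day 1 (0.75, edgeR's adjusted p = 0.0149). Without replicate 3 of day 1 it was 0.31 (edgeR's adjusted p = 0.127), and these were the highest and lowest of the values without 1 library. In siPRMT1 cells the CPM were 3.31, 4.38 and 3.63 at day 1 and 7.23, 6.57 and 7.19 at day 3, with no overlap. There Ppargc1a rose, with a log2 fold change of 0.88 (standard error 0.127, edgeR's adjusted p = 3.65e-05). A difference between the siRNAs in this course is the interaction given further on, which was not called for Ppargc1a.

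Prdm16, on chromosome 4 from 154316122 to 154636873, had 1 count in replicate 3 of each of the 4 conditions and 0 in the other 8 libraries. Its largest value was 0.0496 CPM, under the limit that a count of 0 allows, and no difference was detectable (two-sided exact permutation test, p = 1.0 in every comparison of 3 against 3 libraries). Of the coactivators in the set, PRDM16 is the one that defines the brown lineage, and its transcript was at this floor at both days.

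Ucp2, on chromosome 7 from 100493358 to 100499629, was at 165, 166 and 216 CPM in siCtrl at day 1 and 202, 225 and 233 CPM at day 3. The third day 1 library lay among those of day 3, and the log2 fold change of 0.28 was not called (standard error 0.113, edgeR's adjusted p = 0.0575). Without that library it was 0.40 and passed the adjusted p, though not the fold a call required (edgeR's adjusted p = 0.000217). In siPRMT1 cells it was at 157, 147 and 157 CPM at day 1 and 187, 201 and 198 CPM at day 3, with no overlap. The log2 fold change of 0.34 passed the adjusted p (standard error 0.0562, edgeR's adjusted p = 0.000122) and was smaller than a call required. Ucp1, on chromosome 8 from 83290348 to 83298456, had 1 count in all 12 libraries, in siPRMT1 replicate 3 at day 1. Of the 2 uncoupling proteins in the set, Ucp2 alone was thus measurable.

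Elovl3, on chromosome 19 from 46131899 to 46135694, was close to absent at day 1 and clearly present at day 3. Its counts in siCtrl cells were 0, 1 and 0 at day 1 and 137, 114 and 163 at day 3. In siPRMT1 cells they were 0, 3 and 1 at day 1 and 106, 129 and 111 at day 3. It passed the filter on low counts through its day 3 libraries, and was called higher at day 3 in both (edgeR's adjusted p = 1.02e-07 and 1.31e-09). With 1 count at day 1, the ratio of pooled CPM by library total was 596 in siCtrl cells (95% exact interval 106 to 23591), and with 4 counts it was 89.0 in siPRMT1 cells (34.5 to 329), intervals for counting error only. Pitx3 overlaps its exons on the opposite strand and had 12 counts in all 12 libraries.

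Cidea, on chromosome 18 from 67343564 to 67367794, had 0 counts in all 6 libraries of day 1. At day 3 it had 9, 6 and 5 counts in siCtrl and 1, 3 and 1 in siPRMT1 replicates. With 3 counts put in place of 0 over the group at day 1, the day 3 ratio by library total was 9.6 in siCtrl and 1.7 in siPRMT1 cells. The two-sided exact permutation p was 0.1 for each, the smallest that 3 against 3 allow. Counting error at day 3 is left out of these ratios. The 95% exact Poisson intervals of pooled CPM were 0 to 0.0434 at day 1 and 0.207 to 0.523 at day 3 in siCtrl cells. In siPRMT1 cells the intervals overlapped, at 0 to 0.0495 and 0.0224 to 0.161. Dio2, on chromosome 12 from 90724552 to 90739037, had the opposite order, with 4, 1 and 0 counts in siCtrl and 2, 4 and 2 in siPRMT1 replicates at day 1, and 1 count over all 6 libraries at day 3. In siPRMT1 cells the pooled ratio was 7.77-fold lower at day 3 with 1 count (95% exact interval 1.04 to 345, two-sided exact permutation p = 0.1). In siCtrl cells it was 1.16-fold lower with 3 counts put in place of 0 at day 3 (two-sided exact permutation p = 0.4). The 95% exact Poisson intervals of pooled CPM overlapped there, at 0.0191 to 0.137 at day 1 and 0 to 0.0624 at day 3. Both genes stayed under the filter on low counts, and the few counts put no firmer size on either difference. The exact intervals of Cidea and Dio2 are for counting error only.

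**Figure D2:**
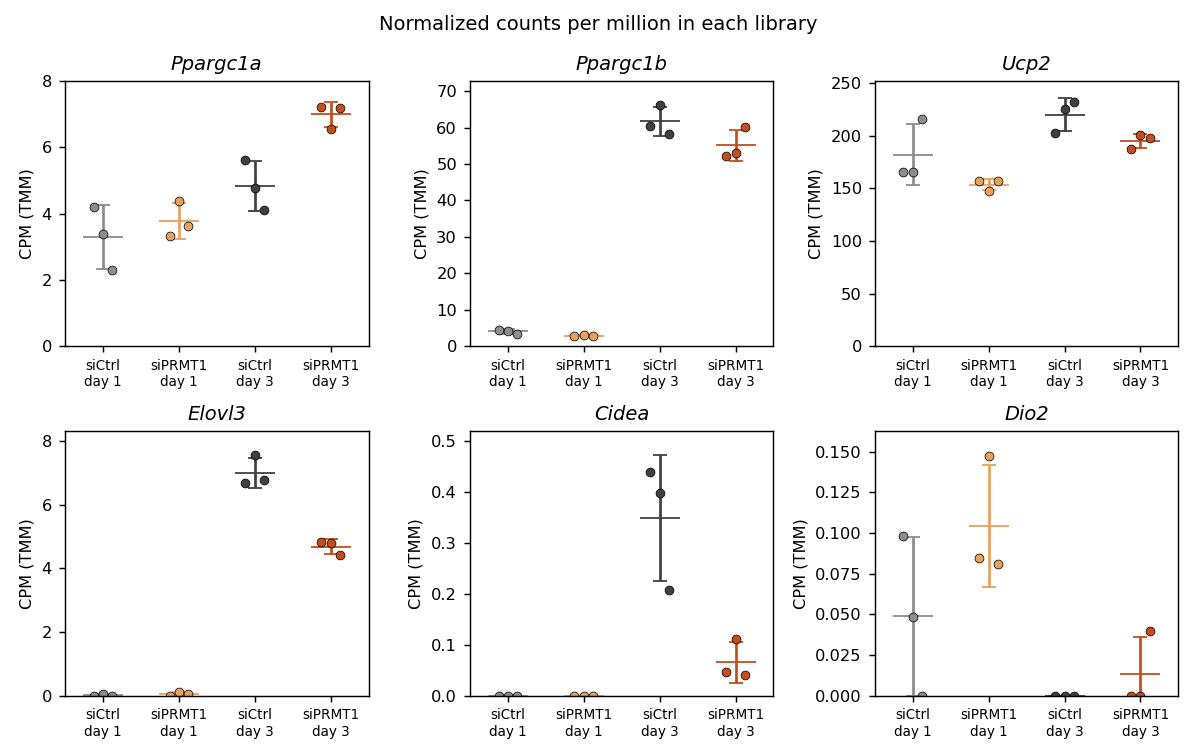
TMM-normalized CPM of 6 genes in each of the 12 libraries, by siRNA and day, each panel with its own axis from 0. Points are libraries and bars the mean ± SD of 3. Ppargc1b and Elovl3 stand far higher at day 3 than at day 1 in both siRNA groups, and the siPRMT1 libraries of day 3 lie above siCtrl for Ppargc1a and below it for Elovl3 and Cidea.

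The knockdown was compared at each day alone. At day 1, 3 of the 8 genes passed the filter (Ppargc1a, Ppargc1b and Ucp2) and 0 were called, where 1.95% of the 13689 genes tested were called higher and 1.61% lower with edgeR. At an unadjusted p under 0.05, 1 of the 3 was lower (Ppargc1b) and 0 were higher, and DESeq2 called 0 as well. Ppargc1a overlapped between the siRNAs, with means of 3.29 ± 0.961 and 3.78 ± 0.550 CPM (SD, n = 3) and a log2 fold change of 0.20 (standard error 0.230, edgeR's adjusted p = 0.658). Ppargc1b was 2.84, 2.98 and 2.83 CPM in siPRMT1 replicates, below all 3 siCtrl libraries given above, with a log2 fold change of -0.45 (standard error 0.156, edgeR's adjusted p = 0.119). Ucp2 lay below siCtrl in all 3 siPRMT1 libraries on the CPM scale, with a log2 fold change of -0.21 (standard error 0.0993, edgeR's adjusted p = 0.234), while its deposited FPKM overlapped. Groups without overlap were found for 31.3% of all genes tested at day 1. Without siCtrl replicate 3, Ppargc1b was called lower at day 1 (log2 fold change -0.57, edgeR's adjusted p = 0.0122), while Ppargc1a was at -0.0095 (edgeR's adjusted p = 0.972) and Ucp2 at -0.09 (edgeR's adjusted p = 0.221). The median of all genes tested was 0.0096 in the full comparison.

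Among the genes under the filter at day 1, Elovl3 had 1 count in siCtrl and 4 in siPRMT1 cells, a ratio of 4.57 (95% exact interval 0.452 to 225). Dio2 had 5 and 8 counts, a ratio of 1.83 (0.527 to 7.10, two-sided exact permutation p = 0.3). Neither ratio was distinguishable from equal levels at this depth, with intervals for counting error only.

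At day 3, 4 of the 8 genes passed the filter. Ppargc1a was called higher and Elovl3 lower in siPRMT1 cells, 1 gene in each direction, where 2.84% of the 14039 genes tested were called higher and 3.80% lower. Groups did not overlap for 3 of the 4 (Ppargc1a, Ucp2 and Elovl3), beside 34.9% of all genes tested. The coactivator and the fatty acid elongase thus moved in opposite directions in the same libraries.

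Ppargc1a had 158, 176 and 181 counts in siPRMT1 and 115, 72 and 99 in siCtrl replicates at day 3. Its mean was 6.99 ± 0.371 CPM against 4.83 ± 0.752 CPM (SD, n = 3), 44.75% higher, with every siPRMT1 library above every siCtrl library. The log2 fold change was 0.55 (standard error 0.135, edgeR's adjusted p = 0.0117), close to the threshold of 0.5. Without siCtrl replicate 3 it was 0.43 and no longer called (edgeR's adjusted p = 0.0644). With all 12 libraries in 1 model it was 0.54 with an adjusted p of 0.0695 from edgeR. In deposited FPKM the 3 siPRMT1 libraries were at 0.62, 0.57 and 0.62 and the siCtrl libraries at 0.48, 0.40 and 0.35, so that the transcript stayed under 1 FPKM in every library and under limma's filter on low FPKM. Without that filter, the difference on the log2(FPKM + 1) scale was 0.19 and not called (limma's adjusted p = 0.103).

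Elovl3 went from 6.69, 7.56 and 6.77 CPM in siCtrl to 4.85, 4.81 and 4.41 CPM in siPRMT1 replicates at day 3. Its mean fell from 7.00 ± 0.480 to 4.69 ± 0.243 CPM (SD, n = 3), and the log2 fold change was -0.56 (standard error 0.122, edgeR's adjusted p = 0.00536). It was called lower without each of the 6 libraries in turn, with log2 fold changes from -0.60 to -0.51. On the log2(FPKM + 1) scale, which understates differences of low genes, the difference was -0.42 and passed the adjusted p but not the threshold of 0.5 (limma's adjusted p = 0.00658).

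Cidea at day 3 had 20 counts over the 3 siCtrl and 5 over the 3 siPRMT1 libraries, and stayed under the filter. The highest siPRMT1 library was under the lowest siCtrl library, and the pooled CPM by library total was 4.90-fold lower (95% exact interval 1.78 to 16.7, two-sided exact permutation p = 0.1, the smallest that 3 against 3 allow). The interval is for counting error only and leaves out the spread between libraries. Without the filter on low counts Cidea was called lower by edgeR, with a log2 fold change of -2.20 (standard error 0.695, edgeR's adjusted p = 0.0178). With limma on log2(FPKM + 1) without the FPKM filter, the difference was -0.30 and not called (limma's adjusted p = 0.0659).

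Ppargc1b and Ucp2 were not called at day 3. Ppargc1b was at 52.2, 53.0 and 60.1 CPM in siPRMT1 replicates, and the highest of these lay above the lowest siCtrl library, with a log2 fold change of -0.15 (standard error 0.0816, edgeR's adjusted p = 0.229). Ucp2 was 195 ± 6.84 against 220 ± 15.7 CPM (SD, n = 3), without overlap and at a log2 fold change of -0.16 (standard error 0.0715, edgeR's adjusted p = 0.134). At day 3, Dio2 had 1 count in siPRMT1 and 0 in siCtrl libraries, Prdm16 had 1 in each, and Ucp1 had 0 in all 6.

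**Figure D3:**
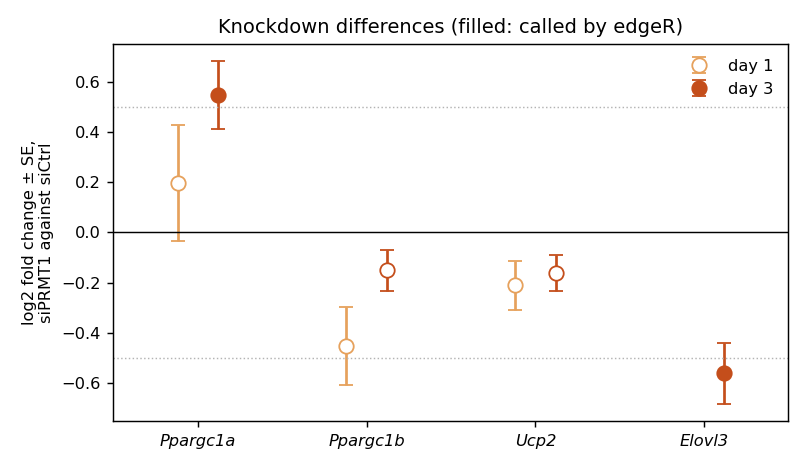
Log2 fold change of siPRMT1 against siCtrl (points) with its standard error (bars) at day 1 and day 3 for the genes that passed the filter on low counts, filled where called by edgeR and with dotted lines at 0.5 and -0.5. Ppargc1a at 0.55 and Elovl3 at -0.56 are the filled points, both at day 3, and Elovl3 has no point at day 1.

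Some adipocyte and preadipocyte markers moved in the same day 3 comparison. The summed FPKM of the 8 adipocyte markers was 2190 to 2402 in siCtrl and 1688 to 1929 in siPRMT1 libraries at day 3, and that of 6 preadipocyte markers 108.7 to 116 and 143 to 165. Of 7 adipocyte markers tested, 3 were called lower (Cfd, -1.01, Plin1, -0.71, and Adipoq, -0.69, log2 fold changes), beside 3.80% of all genes tested. Lpl (-0.48), Retn (-0.42) and Cd36 (-0.35) passed the adjusted p but not the fold. Fabp4 passed neither (-0.13, edgeR's adjusted p = 0.34). Of 6 preadipocyte markers 2 were called higher (Ly6a, 0.96, and Pdgfra, 0.60), beside 2.84%. Pdgfrb (0.41) passed the adjusted p alone. Dlk1 (-0.07), Thy1 (0.11) and Cd34 (0.82) did not pass it (edgeR's adjusted p = 0.699, 0.542 and 0.251). The part of the adipocyte and preadipocyte markers in the values of Ppargc1a, Elovl3 and Cidea was not tested. At day 1 the adipocyte markers summed to 96.8 to 110.0 FPKM in siCtrl and 80.8 to 92.9 in siPRMT1 libraries.

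The difference of the knockdown effects between the days was tested over all 12 libraries. Of the 4 genes tested, 0 were called, where 4.77% of 14612 genes were called higher and 3.47% lower. At an unadjusted p under 0.05, 0 of the 4 passed, and DESeq2 called 0. For Ppargc1a the difference was 0.37 on the log2 scale (standard error 0.264, edgeR's adjusted p = 0.394), for Ppargc1b 0.33 (standard error 0.159, edgeR's adjusted p = 0.201) and for Ucp2 0.07 (standard error 0.132, edgeR's adjusted p = 0.774). Without siCtrl replicate 3 of day 1 these were 0.54, 0.40 and -0.09, and none of the 4 was called by edgeR. The difference for Elovl3, -2.31 (standard error 1.13, edgeR's adjusted p = 0.205), rests on 5 counts at day 1. A knockdown effect on Ppargc1a that is particular to day 3 is therefore not shown. The comparisons of the days and of the siRNAs share libraries, and their values are given side by side only.

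Within a library, the ratio of Ppargc1b to Ppargc1a per base of transcript length does not depend on the normalization between libraries. This ratio was looked at after the values of both genes were seen. The siCtrl replicates had ratios of 1.109, 1.26 and 1.53 at day 1, and the siPRMT1 replicates 0.890, 0.706 and 0.806. For day 3 the ratios were 11.2, 14.4 and 14.7 (siCtrl) and 7.49, 8.36 and 8.66 (siPRMT1). The siPRMT1 libraries were all under the siCtrl libraries at each day, with log2 differences of -0.69 and -0.71 (two-sided exact permutation p = 0.1 at each day, the smallest that 3 against 3 allow). Between the siRNAs, groups did not overlap for 31.3% of the single genes tested at day 1 and 34.9% at day 3. From day 1 to day 3 the mean ratio went from 1.30 ± 0.215 to 13.4 ± 1.94 in siCtrl cells and from 0.801 ± 0.0925 to 8.17 ± 0.607 in siPRMT1 cells (SD, n = 3), without overlap. Groups did not overlap between the days for 64.5% of the single genes tested in siCtrl and 66.7% in siPRMT1 cells. By the listed lengths, 11894 bases for Ppargc1a and 11474 for Ppargc1b, PGC-1alpha thus had the higher transcript level of the pair only in siPRMT1 cells at day 1. Which transcripts of each gene were expressed was not tested, and other lengths would shift every ratio by the same factor. The order of the pair at day 1 therefore rests on these lengths.

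**Figure D4:**
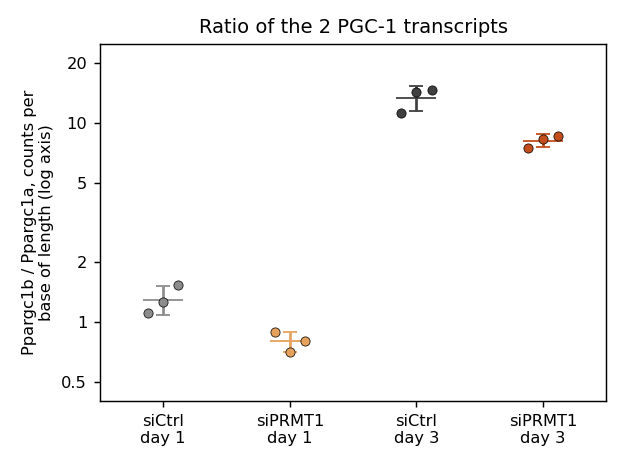
Ratio of Ppargc1b to Ppargc1a counts per base of length in each library (points, log axis), with the mean ± SD of 3, by siRNA and day. The ratio lies near 1 at day 1 and between 7.49 and 14.7 at day 3, with the siPRMT1 libraries below the siCtrl libraries at both days.

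Related genes were counted by list, each share read against that of all genes tested: 1.95% called higher and 1.61% lower in siPRMT1 cells at day 1, 2.84% and 3.80% at day 3, and 22.7% and 20.4% between the days in siCtrl cells. With lists of 11 to 19 tested genes, 1 gene is 5.26% to 9.09% of a list, so a count of 1 says nothing of the list. Of the 11 genes of these lists and of the adipocyte markers called at day 1, 10 were called as well without siCtrl replicate 3, and Pparg was at -0.48 (edgeR's adjusted p = 0.000119), short of the fold a call required. The relatives of the set were a list of 16 genes. At day 1, 11 were tested and 1 was called lower, Cidec (log2 fold change -0.90, edgeR's adjusted p = 0.0489). At day 3, 1 of 11 was called higher, the mitochondrial carrier Slc25a27 (not called by DESeq2), and 2 lower, Cidec (-0.54, edgeR's adjusted p = 0.000167) and Elovl4, which makes very long fatty acids (-1.29). The median over the list was 0.15 at day 1 and 0.06 at day 3, beside 0.0096 and 0.0073 over all genes tested. Between the days in siCtrl cells, 3 of 11 were called higher (27.27%), with Cidec at 7.19 and Elovl1 at 1.35, and 7 lower (63.64%), among them Mecom (-1.57), Slc25a30 (-1.43), Elovl6 (-0.87), Slc25a14 (-0.86) and Elovl5 (-0.72). Pprc1 was not called in any of these comparisons, at 0.21, 0.06 and 0.42.

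Brown fat regulators, a list of 22 transcription factors and cofactors, had 2 of 18 called lower at day 1, Pparg, the nuclear receptor that drives fat cell formation (-0.52, edgeR's adjusted p = 0.00659), and its partner Cebpa (-0.88, edgeR's adjusted p = 0.0156). At day 3, 1 of 19 was called lower, Irf4 (-0.69, edgeR's adjusted p = 0.0260), a factor that acts with PGC-1alpha on Ucp1 in brown fat. DESeq2 called 0 of this list at day 3, and 2 were higher and 6 lower at an unadjusted p under 0.05 in edgeR's test. From day 1 to day 3 in siCtrl cells, 6 of 19 rose (31.58%, beside 22.7% of all genes), among them Pparg (2.01) and the PGC-1 partner Esrra (1.497), and 3 fell (15.79%, beside 20.4%), among them Tbx15 (-0.71) and Klf11 (-0.68), which is close to the course of genes at large. Irf4, also among the 6 that rose, was not tested at day 1. It passed the filter between the days through its day 3 libraries and could only rise. Esrrb and Esrrg, the relatives of Esrra, had counts in 4 and 1 of the 12 libraries. Among the 17 repressors of the thermogenic programme, 1 of 16 was called higher at day 1, Trib3 (1.57), and 1 lower, the LXR receptor Nr1h3 (-0.64). At day 3 both were called lower, at -0.96 and -0.64, and no other repressor was called. Nrip1, which encodes the corepressor RIP140, was at 5.89 FPKM in siCtrl at day 1 and 12.9 FPKM at day 3.

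The signals upstream of Ucp1, Ppargc1a and Dio2 were a list of 21 genes of adrenergic, cAMP and thyroid hormone signalling. At day 1, 0 of 15 were called by edgeR or by DESeq2, and 1 was higher and 4 lower at an unadjusted p under 0.05. At day 3, the phosphodiesterase Pde3b was called lower (-0.51, edgeR's adjusted p = 0.000302). Adrb3, the receptor of the classical thermogenic response, stayed under the filter on low counts and was not tested. At day 3 Adrb3 was at 0.149 ± 0.0785 FPKM in siCtrl and 0.0978 ± 0.0312 FPKM in siPRMT1 cells (SD, n = 3). From day 1 to day 3 in siCtrl cells Prkar2b rose (1.13), and 4 of 16 genes of the list fell (beside 20.4% of all genes), among them Nr4a1 (-2.29) and Pde4b (-1.62), both of which cAMP induces. The thyroid hormone receptor Thra was at 52.4 FPKM in siCtrl cells at day 3.

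Other markers of brown and beige fat (28 genes) were mostly low: 11 were tested at day 1 and 12 at day 3, and Fabp3, Zic1 and Tbx1 had 0 counts in all 12 libraries. At day 1, 3 were called higher (Gdf15, 1.60, Eva1a, 1.14, and Acot2, 0.95) and 1 lower (S100b, -1.03). At day 3, 2 were called lower, Nrg4, a secreted factor (-1.57, edgeR's adjusted p = 2.45e-06) and Clstn3 (-1.10, edgeR's adjusted p = 1.48e-06). The median at day 3 was -0.23. In siCtrl cells 8 of 13 rose between the days (61.54%, beside 22.7%), among them Clstn3 (6.57) and Nrg4 (3.66), and 3 fell (23.08%, beside 20.4%), among them Pdk4 (-1.41). Clstn3, at 0.310 CPM in siCtrl cells at day 1, passed the filter through its day 3 libraries and could only rise. The same held for Cited1, with 5 to 10 counts a library in siCtrl cells at day 1. Both are among the 8 that rose, so the share of 61.54% is not a free comparison with 22.7%. Of 18 genes of heat cycles that do not need UCP1, 1 of 11 was called lower at day 1, the lipase Pnpla2 (-0.85), and 3 of 12 at day 3, Alpl (-1.17), which acts on phosphocreatine, the lipase Lipe (-0.61) and Pnpla2 (-0.55). Of that list, 7 of 11 rose between the days in siCtrl cells (63.64%, beside 22.7%). Gatm, the first enzyme of creatine synthesis, had 0 counts in all 12 libraries.

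The genes most like each of the 4 measured genes were found over the 12 libraries, as the smallest root mean square difference of centred log2 CPM. For Ppargc1a they were Pak3 (0.189), Chml (0.194) and Cp (0.204) among 12465 genes. For Ppargc1b they were Pex11a (0.175), Acsl1 (0.207) and Syn2 (0.234) among 9323 genes, and for Ucp2 Map2k3 (0.0417), Wbp1l (0.0524) and Clip2 (0.0528). Elovl3 had no neighbour as close, with Clstn3 at 0.347, Pnpla3 at 0.392 and Adtrp at 0.415. Clstn3, itself in the list of brown and beige markers, was at 0.310 and 0.300 CPM in siCtrl and siPRMT1 cells at day 1 and at 31.6 and 14.7 CPM at day 3, and so, like Elovl3, was near 0 at day 1 and lower in siPRMT1 cells at day 3. The libraries share their day and siRNA, so likeness describes the pattern over the 4 conditions.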

How the data were processed

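The 12 libraries were mRNA libraries of 3T3-L1 cells, read as siCtrl and siPRMT1 at 24 h and 72 h of DMI from their titles. The authors deposited whole-number counts per gene without normalization, and FPKM made from them. FPKM recomputed from counts, listed lengths and library totals differed from the deposited FPKM by at most 0.005. The submitters' processing notes list cutadapt 1.11, HISAT2 2.1.0 and RSEM 1.2.6, with no role, and the mm10 build. The counting tool, its strand setting and its treatment of multimapped reads are not given in the sources used here, so reads of overlapping genes on opposite strands could not be separated. Which of the PRMT1 siRNAs was used is not stated.

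Counts were compared with edgeR 4.0.16 (quasi-likelihood test, TMM, filterByExpr, R 4.3.3), with Benjamini-Hochberg adjustment over all genes tested, and standard errors as the absolute log2 fold change over the square root of F. Each comparison of 3 against 3 libraries was fitted alone, and the interaction of siRNA and time over all 12. Genes under the filter were given as counts, with an exact conditional interval of the ratio and an exact permutation test over libraries of CPM by library total. Alternatives were DESeq2 1.42.0, RLE normalization, no filter, at least 10 counts in every library, a replicate block, 1 model for all 12 libraries, calls by adjusted p alone, limma 3.58.1 on log2(FPKM + 1) where mean FPKM reached 1, a pseudocount of 0.1, no FPKM filter, and each library left out. On simulated counts, 200 genes a comparison were changed by a log2 fold of 1, or of 1.5 for the interaction. Of these edgeR recovered 197 to 200, with 7 to 18 false calls. All genes had the same dispersion, and genes as low as Ppargc1a and Elovl3 were not among those changed. The recovery therefore does not cover these genes or their smaller knockdown differences. Replicates differed by more than counting error (chi-square per gene 4.144 to 50.642).

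The genes and lists were chosen with earlier results of these data known. Named genes were the 8 of the set, Prmt1, relatives whose mean FPKM reached 1, and up to 3 called genes with the smallest p of each other list, and others named were chosen after their values were seen. Likeness was sought where mean CPM reached 10, or 1 for Ppargc1a and Elovl3. Two-sided tests were used throughout. Of the signalling list, 1 result is not reported here.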

Additional observations from a re-analysis of the deposited data

Results flagged for a closer look

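The knockdown effect differed between the days for 11 genes of the lists, by edgeR's test of the interaction over all 12 libraries, and none of them was 1 of the 8 thermogenic and PGC-1 genes. The values are the log2 effect at day 3 minus that at day 1, with edgeR's adjusted p. Among repressors, Trib3 differed by -2.50 (adjusted p = 6.21e-08), from 1.57 at day 1 to -0.96 at day 3. Among brown and beige markers, Nrg4 differed by -1.88 (adjusted p = 0.00149), Gdf15 by -1.86 (adjusted p = 0.00642), Acot2 by -1.01 (adjusted p = 0.00403) and S100b by 1.07 (adjusted p = 0.0163). Elovl4, an elongase related to Elovl3, differed by -1.45 (adjusted p = 0.00218). Tfam, the mitochondrial transcription factor in the list of brown fat regulators, differed by 0.55 (adjusted p = 0.0179) and was called at neither day. Alpl, of the heat cycles that do not need UCP1, differed by -1.18 (adjusted p = 0.00568). The preadipocyte markers Ly6a and Pdgfra differed by 1.2001 (adjusted p = 6.93e-05) and 0.86 (adjusted p = 1.71e-05), and the macrophage marker Cd68 by -0.67 (adjusted p = 0.0489). What underlies these differences was not tested.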

How the results depend on the processing

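At day 3, 2 of the 8 genes were called with edgeR. With all 12 libraries in 1 model this was 1, with limma on log2(FPKM + 1) 0, with a pseudocount of 0.1 1 and without the FPKM filter 0. Leaving out 1 library gave 1 to 2. Ppargc1a at day 3 was 0.54 in the model of 12 libraries (adjusted p = 0.0695) and 0.19 with limma without the filter (adjusted p = 0.103), and ran from 0.43 to 0.67 without 1 library. At day 1 the number called was 0, and 0 to 1 without 1 library. In siCtrl cells between the days, 2 were called, 4 without the filter on low counts, 3 with all 12 libraries in 1 model, 1 with at least 10 counts in every library, and 2 to 3 without 1 library. In siPRMT1 cells (3 called) and for the interaction (0 called), leaving out 1 library changed neither number.

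Reversed values were the interaction of Ppargc1b at -0.0306 with limma (pseudocount 1, with and without the filter), that of Ucp2 at -0.0015 and, with a pseudocount of 0.1, -0.0012, and, without 1 library, those of Ucp2 from -0.0903 to 0.14 and of Ppargc1a at day 1 from -0.0095 to 0.45. Of 309 alternative values of single genes of the set, 290 kept their direction and side of the threshold. The cause of these changes was not tested.

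Over all genes at day 1, 487 were called, 1040 without the threshold on the fold change, 246 with limma, 153 without its filter and 123 to 873 without 1 library. At day 3, 933 were called, 2313 without that threshold, 388 with limma, 569 with the pseudocount of 0.1 and 342 without the filter. Between the days in siCtrl cells it was 5969, and 3964 with limma. In siPRMT1 cells it was 5186, 9014 without the fold threshold, and 3144 and 3432 with limma. For the interaction it was 1204, 706 with limma without the filter, and 813 to 1907 without 1 library.

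Same-numbered replicates did not deviate together (correlations -0.17 to 0.22 over 14612 genes). With the replicate block, Ppargc1a at day 3 was 0.56 (adjusted p = 0.00882) and Elovl3 -0.57 (adjusted p = 0.00538), and the number called in the set changed in siCtrl cells between the days alone, to 3, with Ppargc1a added (0.57, adjusted p = 0.0186). Depth limits Prdm16, Ucp1, Dio2 and Cidea to counts of at most 9 a library, which set no size for small differences.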
